A study of Mus musculus with 10 samples.

Results

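Complex I genes were examined in the adult cortex of mice that carry a Chd8 knock-in allele. The members are the rows of the table whose mouse symbol begins with Ndufa, Ndufb, Ndufc, Ndufs or Ndufv (Ndufaf among them), together with the mitochondrial genes ND1, ND2, ND3, ND4, ND4L, ND5 and ND6. They numbered 53 of 13661 genes, made up of 38 with a nuclear subunit symbol, 8 Ndufaf assembly factors and 7 mitochondrially encoded subunits. RefSeq lists 54 nuclear symbols that meet this rule. Of these, 46 were in the table, and the other 8 (5 pseudogenes and the protein-coding Ndufb1, Ndufb4b and Ndufb4c) were not analysed here. The table starts at a mean normalised count of 24.4, so the 53 are the members above that floor and not all members.

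The series compared poly(A) RNA of 5 wild-type (WT) cortices with that of 5 cortices from mice labelled Chd8 KI (knock-in), all from males 8 weeks old. The knock-in models a duplication of Chd8, a chromatin remodeller linked to autism. The labels give neither the promoter and site of the allele nor whether animals shared a litter. The values are those of the authors' deposited table for this 1 comparison, so depth and the level in each library are not known here. The KI direction was read from Chd8 itself, which stood at 0.49 on the log2 scale (SE, the standard error, 0.10; adjusted p = 0.0044, DESeq2 Wald test) in the authors' deposited table. Cortical markers were present there, among them Slc17a7, the vesicular glutamate transporter of cortical excitatory neurons, at a mean normalised count of 28078.

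Complex I, or NADH:ubiquinone oxidoreductase, takes electrons from NADH, passes them to ubiquinone and pumps protons across the inner mitochondrial membrane. It is the entry point of the respiratory chain on which neurons depend for ATP. Its matrix arm holds the flavin and the iron-sulphur clusters, and its membrane arm holds the proton pumps. The core of the matrix arm is encoded in the nucleus and the core of the membrane arm in the mitochondrial genome. Accessory subunits and assembly factors are all nuclear. The mitochondrial genes are read as long joint transcripts that are then cut apart, so their levels are not independent of each other.

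Nuclear and mitochondrial subunit genes stood on opposite sides of no change, by a few percent each, and none passed the threshold singly. Of the 38 genes with a nuclear subunit symbol, 35 had a negative log2 fold change in the authors' deposited table, with a median of -0.057 (0.961 of the WT level). Without Ndufa4 and Ndufa4l2, which are not part of the enzyme, 33 of 36 were negative, with a median of -0.057. Shorter transcripts tended to be negative in the whole table. With that length trend removed the median of the 38 was -0.024, with 28 of 38 negative, or 26 of the 36. Among the 7 mitochondrial subunits 6 were positive, with a median of 0.076 (1.05 of WT). The 8 Ndufaf assembly factors lay between, with 6 negative and 2 positive and a median of -0.041. Over all 13660 genes tested the median was 0.0025, and 48.4% were negative.

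Of the 53 members, 0 passed an adjusted p of 0.05 (the authors' DESeq2 Wald test with Benjamini-Hochberg adjustment), where 0.0732% of all genes did. An unadjusted p under 0.05 was given to 2 of the 53 (3.77%), Ndufb3 on the lower side and ND3 on the higher side. The share over all genes was 3.22% in either direction, 1.88% lower and 1.34% higher, so the members' share was near the background. Of the 46 nuclear members 41 were negative, and taken singly the intervals of 45 included 0. Among the 36 that are built into the enzyme, the log2 fold changes had an SD of 0.053, less than the median standard error of 0.080 for any 1 of them. That SD is a spread between genes of the same libraries and does not measure the error of their shared shift. The 3 classes were not tested against each other, since genes are not replicates and a test over animals needs the counts of each library. The 95% interval lay within ±0.5 on the log2 scale for 50 of 53 members, and within ±0.25 for 36.

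**Figure D1:**
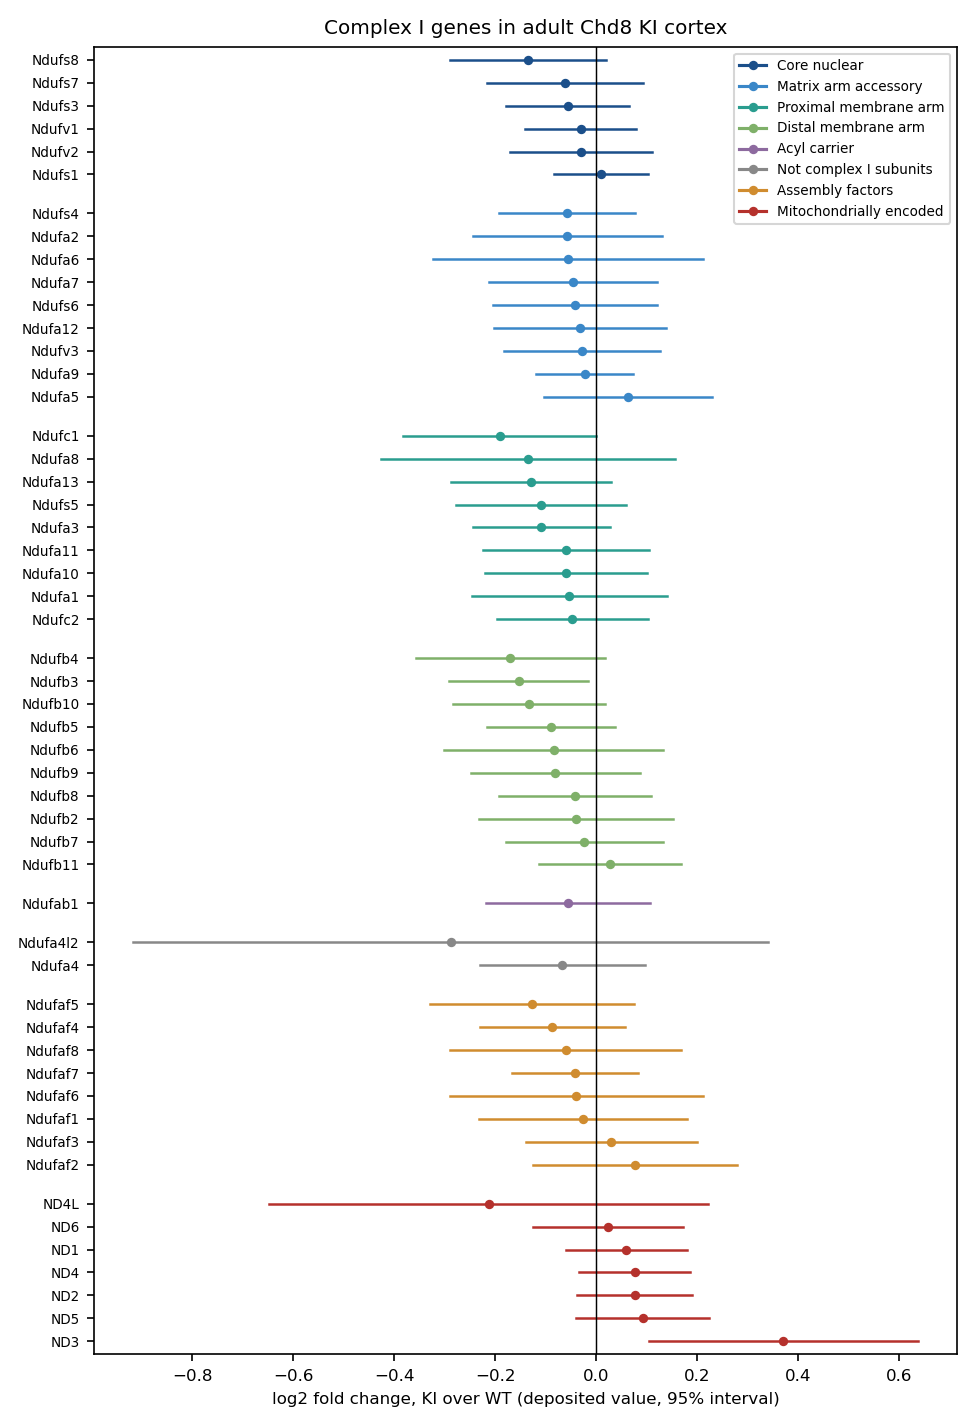
Log2 fold change of 52 of the 53 complex I genes, KI over WT, on the horizontal axis, as deposited, with 95% intervals as bars and genes grouped by place in the enzyme. Only Ndufb3 (below 0) and ND3 (above 0) have an interval that leaves out 0, and the intervals of Ndufa4l2 and ND4L are the widest.

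The near-identical nuclear copies of 2 mitochondrial members are shown first, because the reading of their values turns on them. In GENCODE M21, on GRCm38, ND3 (mitochondrial genome, 9459 to 9806) has a copy in the unprocessed pseudogene Gm28438 on chromosome 1, from 24612775 to 24613119. The copy matched ND3 over 345 of its 348 bases with a single substitution, T3C (ND3's base first, position counted from 1 at the first base of the gene). The first 150 bases of both are written 5′ to 3′ along the gene, with that base in capitals.
ND3: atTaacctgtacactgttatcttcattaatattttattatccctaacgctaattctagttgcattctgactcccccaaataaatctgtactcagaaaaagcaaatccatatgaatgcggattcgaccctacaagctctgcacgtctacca
Gm28438: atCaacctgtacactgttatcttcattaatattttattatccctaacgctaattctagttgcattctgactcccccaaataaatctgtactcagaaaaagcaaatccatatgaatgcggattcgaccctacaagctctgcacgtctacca

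ND4L (9877 to 10173) matched the pseudogene Gm10222 (chromosome 1, 24612407 to 24612700) over 294 of its 297 bases with 0 differences, so 1 sequence stands for both.
ND4L and Gm10222: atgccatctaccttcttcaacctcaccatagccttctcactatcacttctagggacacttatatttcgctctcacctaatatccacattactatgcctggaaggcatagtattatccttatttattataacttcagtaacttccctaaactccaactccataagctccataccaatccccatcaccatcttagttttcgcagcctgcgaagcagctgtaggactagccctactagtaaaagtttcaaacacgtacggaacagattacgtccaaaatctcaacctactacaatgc
Both belong to a stretch of mitochondrial sequence in chromosome 1 that runs on into ND4, whose first 876 of 1378 bases were identical to Gm28439. On the other side it holds ATP6, COX3 and COX2 over nearly their whole length, and the last 483 bases of COX1. A read from such a stretch fits both places, and how the authors treated reads with more than 1 alignment is not stated in the labels or notes. Counts of these pseudogenes were not analysed here.

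The 7 mitochondrial subunits form the core of the membrane arm, where ND2, ND4 and ND5 are proton-pumping subunits and ND1 lies at the ubiquinone site. In the authors' deposited table their mean normalised counts over all libraries were 102044 for ND1, 72926 for ND2, 71559 for ND4, 79881 for ND5 and 21546 for ND6. Per kilobase that is 106629 for ND1, 70256 for ND2, 51930 for ND4, 43794 for ND5 and 41514 for ND6. ND3 and ND4L, small subunits of the proximal membrane arm, had mean normalised counts of only 723 and 154, or 2077 and 520 per kilobase. ND1 thus stood 51.3 times above ND3 and 205 times above ND4L per kilobase, and ND4, which overlaps ND4L by 7 bases, 99.9 times above it. COX2, ATP6 and COX3, subunits of cytochrome oxidase and ATP synthase, lay at 2236, 2335 and 1084 per kilobase, whereas COX1, next to COX2, stood at 210408. COX1 also has a copy on chromosome 2 over its whole length, at 97.6% identity with 37 mismatches. The chromosome 1 copies of ND4L, COX2, ATP6 and COX3 had 0 mismatches, and that of ND3 had 1. The part of the copies in these levels was not tested.

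The 5 mitochondrial ND genes with high counts lay close together. In the authors' deposited table the log2 fold changes were 0.060 for ND1 (SE 0.061), 0.077 for ND2 (0.058), 0.076 for ND4 (0.056), 0.092 for ND5 (0.067) and 0.023 for ND6 (0.076). All 5 intervals included 0 and lay within ±0.25. ND6 is the only subunit gene on the other strand, and overlaps ND5 by 14 bases. The strand setting of the counting is not given in the sources used, so the ND6 count may hold reads of the opposite strand. Without ND6 the median of the mitochondrial subunits was 0.077. Outside complex I, CYTB of complex III stood at 0.074 (0.058) and COX1 at 0.093 (0.066) in the authors' deposited table, close to the same value. The 2 ribosomal RNAs of the same genome, which are read ahead of ND1, were on the other side at -0.069 (0.083, mt-Rnr1) and -0.086 (0.092, mt-Rnr2) there.

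ND3 and ND4L lay away from these 5, with larger errors. ND3 stood at 1.29 of the WT level in the authors' deposited table (95% interval from 1.08 to 1.56; log2 fold change 0.37, SE 0.14, unadjusted p = 0.0063, adjusted p = 0.99986), the 84th smallest p of all genes. ND4L stood at 0.863 of WT there (interval 0.638 to 1.17; log2 fold change -0.21, SE 0.22). These were the highest and the lowest of the 7, and of the 7 they were the 2 with low counts. The other genes of the copied stretch had standard errors of 0.54 (COX2), 0.71 (ATP6) and 0.56 (COX3) in the authors' deposited table, against 0.056 to 0.076 for ND1, ND2, ND4, ND5, ND6, CYTB and COX1. Of these 7, ND4 and COX1 lie in the copied stretch in part, at 0.056 and 0.066. ND2 and ND5 have partial copies on other chromosomes. ND2 matched the pseudogene Gm13339 on chromosome 2 at 96.7% identity over 510 bases. ND5 matched Gm4076 on chromosome 13 at 95.2% over 954 bases. The part of the nuclear copies in these values was not tested. Without ND3 and ND4L the median of the mitochondrial subunits was 0.076, as with them.

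**Figure D2:**
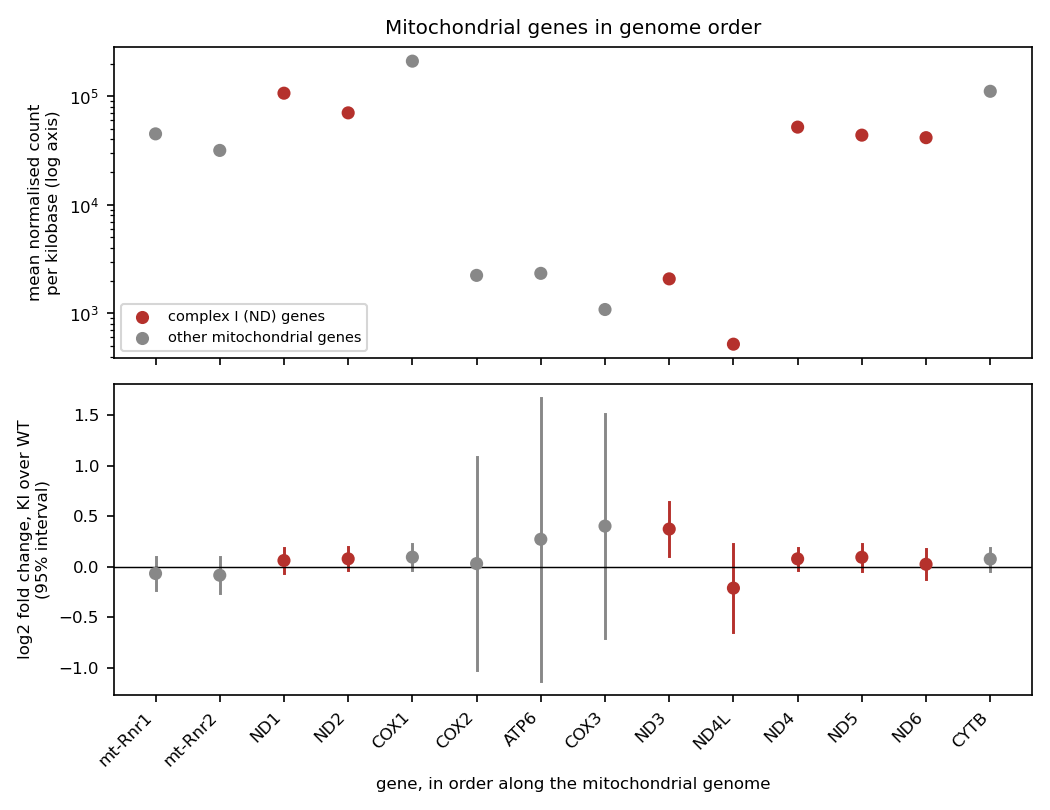
Mitochondrial genes of the table in genome order. The upper panel gives the mean normalised count per kilobase on a log axis and the lower panel the log2 fold change, KI over WT, with 95% intervals. From COX2 to ND4L the levels lie between 520 and 2335 and the intervals are wide, while ND1, ND2, ND4, ND5 and ND6 lie at or above 41514 with fold changes from 0.023 to 0.092.

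The 7 core subunits of the matrix arm, which carry the redox centres, differed little between genotypes. Ndufv1, which binds NADH and the flavin, stood at a log2 fold change of -0.031 (SE 0.056) and its partner Ndufv2 at -0.030 (0.072) in the authors' deposited table. Ndufs1, the largest subunit, was the 1 core gene on the positive side, at 0.0095 (0.047), or 1.01 of WT with an interval of 0.944 to 1.07. Ndufs7, which lines the ubiquinone pocket, stood at -0.062 (0.079) in the authors' deposited table. Ndufs3 stood at -0.056 (0.062) and Ndufs8, an iron-sulphur subunit, at -0.13 (0.079, unadjusted p = 0.0869), again in the authors' deposited table. Ndufs8 was the lowest of the core and the only one beyond -0.1. The core median was -0.056, with 6 of 7 negative. Ndufs3 has a processed pseudogene, Gm12251, at 98.6% identity over 792 bases, so its count is uncertain. In all, 8 of the 38 nuclear subunit genes have such a copy and 15 share exon bases with another gene.

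Accessory subunits stabilise the enzyme and help its assembly, and their medians differed by arm. The 9 of the matrix arm had a median of -0.041 and none lay below -0.1. The 9 of the proximal membrane arm were all negative, with a median of -0.11 and 5 below -0.1. The 10 of the distal membrane arm had 9 negative, a median of -0.082 and 3 below -0.1. Over all genes tested 12.3% lay below -0.1, and over those with a mean normalised count of 500 to 3000, 4.88% did. Neither share is matched for transcript length. The difference between the arms was not tested, and the groups overlapped. The matrix arm ran from -0.058 to 0.063, the proximal membrane arm from -0.19 to -0.047 and the distal one from -0.17 to 0.028 in the authors' deposited table.

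Ndufc1, a single-pass subunit of the proximal membrane arm, was the lowest nuclear subunit of the enzyme, at 0.876 of WT (interval 0.767 to 1.0002; log2 fold change -0.19, SE 0.098, unadjusted p = 0.0504) in the authors' deposited table. Ndufa8 stood at -0.13 (0.15), Ndufa13 at -0.13 (0.081), Ndufs5 at -0.11 (0.086) and Ndufa3 at -0.11 (0.069) in the authors' deposited table. Ndufa8 had a mean normalised count of only 91.5, and 30.0% of the Ndufa13 transcript overlaps Tssk6 on the opposite strand. The other 4 of this arm, Ndufa11, Ndufa10, Ndufa1 and Ndufc2, lay from -0.060 to -0.047 in the authors' deposited table.

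In the distal membrane arm, Ndufb4 stood at 0.889 of WT (interval 0.781 to 1.01; log2 fold change -0.17, SE 0.096, unadjusted p = 0.0758) in the authors' deposited table. Ndufb3 stood at 0.899 (interval 0.817 to 0.989; log2 fold change -0.15, SE 0.070, unadjusted p = 0.0293, adjusted p = 0.99986) there, the 277th smallest p of all genes. Ndufb10 followed at -0.13 (0.077) in the authors' deposited table. Ndufb11, an X-linked subunit, was the 1 positive gene of this arm, at 0.028 (0.072) in the same table. Both leading genes have near-identical copies. Ndufb4 was identical to Ndufb4c over 390 of 971 bases, and Ndufb3 matched the pseudogene Gm45930 at 96.8% over 282 of 763 bases. In the RefSeq annotation of GRCm38, Ndufc1 lies on chromosome 3 from 51405479 to 51408955, Ndufb4 on chromosome 16 from 37647602 to 37654368, and Ndufb3 on chromosome 1 from 58586397 to 58595964. All 3 code for proteins, and each value covers the gene as a whole.

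Among the accessory subunits of the matrix arm, Ndufa5 was the highest nuclear subunit of all, at a log2 fold change of 0.063 (SE 0.085) in the authors' deposited table. Ndufs4, whose loss causes Leigh syndrome and is used as a mouse model of it, stood at 0.961 of WT (interval 0.875 to 1.06) there. Ndufa9 was measured most closely of this group, at -0.023 (0.049), and Ndufa12 stood at -0.032 (0.087), both in the authors' deposited table. Ndufab1, the mitochondrial acyl carrier protein, which also serves fatty acid synthesis, stood at -0.056 (0.082) there.

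Of the nuclear members with a subunit symbol, the 2 that are not part of the enzyme were the most and the least abundant per kilobase. Ndufa4, now placed with cytochrome oxidase, had 4201 normalised counts per kilobase and a log2 fold change of -0.067 (0.083) in the authors' deposited table. Its paralogue Ndufa4l2, a hypoxia-induced gene, had 37.6 per kilobase and stood at -0.29 (0.32) there, with an interval too wide to read. Among the nuclear subunits of the enzyme, levels ran from 106 per kilobase for Ndufa8 to 3001 for Ndufb9, a ratio of 28.2, although subunits are used in near-equal number. Ndufb8 was next to the top at 2506 and Ndufb2 next to the bottom at 170, its transcript of 4371 bases being the longest of the subunits. A level per kilobase rests on the transcript chosen, so that of Ndufb2 is uncertain. Its mean normalised count was 741, as was that of Ndufb4, whose transcript has 971 bases. ND1, ND2, ND4, ND5 and ND6 had a median per kilobase 40.5 times that of the nuclear subunits.

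**Figure D3:**
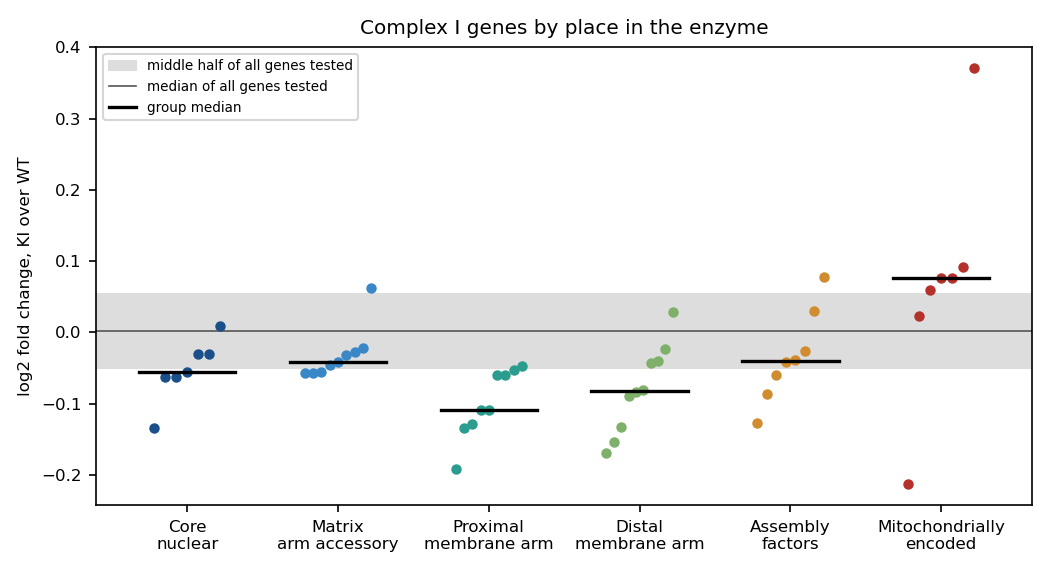
Log2 fold change, KI over WT, of complex I genes (points) by place in the enzyme, with the group median as a black line. Ndufab1, Ndufa4 and Ndufa4l2 are not drawn. Grey marks the interquartile range of all genes tested, -0.051 to 0.054, which is a range of single genes and no measure for a group median, and the thin line their median. Group medians run from -0.11 in the proximal membrane arm to 0.076 in the mitochondrial subunits, and the points of the groups overlap.

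Assembly factors are not part of the finished enzyme and were less abundant, with a median of 308 normalised counts per kilobase for the 8 Ndufaf genes against 1284 for the nuclear subunits. Ndufaf5, a hydroxylase of Ndufs7, stood lowest at a log2 fold change of -0.13 (SE 0.10), and Ndufaf4 at -0.087 (0.073), in the authors' deposited table. Ndufaf8, the partner of Ndufaf5, stood at -0.060 (0.12), Ndufaf7, a methyltransferase, at -0.042 (0.064), Ndufaf6 at -0.039 (0.13) and Ndufaf1 at -0.025 (0.11) in the authors' deposited table. On the positive side were Ndufaf3, the partner of Ndufaf4, at 0.030 (0.087) and Ndufaf2, the paralogue of Ndufa12 that acts late in assembly, at 0.077 (0.10), in the same table. All 8 intervals included 0. Ndufaf3 and Ndufaf4, which act as a pair on the early Q module, thus stood on opposite sides of 0, with overlapping intervals.

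Other factors of complex I assembly, from a list of 15 of which 14 were tested, had a somewhat lower median than the Ndufaf genes. Of the 14, 12 were negative, with a median of -0.054 in the authors' deposited table. None passed the threshold, and 3 had an unadjusted p under 0.05, all lower (21.4%). Of all genes 3.22% had such a p in either direction and 1.88% on the lower side. The list was chosen with earlier results of these data known, so its share is a description and no test. Ecsit stood at -0.17 (SE 0.072, unadjusted p = 0.0194), Tmem126b at -0.19 (0.083, p = 0.0234) and Timmdc1 at -0.17 (0.083, p = 0.0426) in the authors' deposited table. Among the others, Acad9 stood at -0.0056 (0.058) and Tmem186 at 0.025 (0.083) there. Over the 22 assembly factors of either kind, 18 were negative and the median was -0.051.

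Genes that read, process and copy the mitochondrial genome showed no shared sign. Of 27 tested, 14 were negative and 13 positive, with a median of -0.0036, in the authors' deposited table. The 3 with the smallest p were Mterf1a, a mitochondrial termination factor, at 0.52 (SE 0.20, unadjusted p = 0.0088, mean normalised count 44.8), Ssbp1, the mitochondrial single-strand DNA-binding protein, at -0.22 (0.11, p = 0.0376) and Fastkd2 at -0.17 (0.087, p = 0.0483), all in the authors' deposited table. Tfam, which packages the mitochondrial genome and starts its transcription, stood at 0.039 (0.087) and Lrpprc, which stabilises mitochondrial messenger RNAs, at -0.026 (0.055) there. Among 11 nuclear regulators of respiratory genes 7 were negative (median -0.022). Esrra, an orphan receptor that partners the PGC-1 coactivators, stood lowest by p, at -0.13 (0.063, unadjusted p = 0.0414), with Gabpa at -0.14 (0.088), Nrf1 at -0.13 (0.089) and Ppargc1a at -0.069 (0.071) in the authors' deposited table. Relatives of Ppargc1a were positive there, Ppargc1b at 0.20 (0.17) and Pprc1 at 0.13 (0.11). None of these genes passed the threshold.

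The promoters of nuclear members were searched for the motifs of 3 such regulators, on both strands, in RefSeq windows of GRCm38.p6 from 250 bases before to 50 after the start. These were the NRF1 motif (GCGCA, any base, then GCGC), the ETS motif CCGGAAG that Gabpa's complex can bind, and the YY1 motif AAGATGGC. Of 38 nuclear subunit genes 33 had a promoter entry. The NRF1 motif was in 7 (21.2%), against 11.0% of tested genes and 5.19% of all genes with an entry. The YY1 motif was in 7 (21.2%, against 5.03% and 3.19%) and the ETS motif in 4 (12.1%, against 18.8% and 9.93%). Subunits with any of the 3 had a median log2 fold change of -0.060 (n = 17) and those with none -0.050 (n = 16), and the ranges overlapped. Printed below are the promoters of Ndufc1 and Ndufb4, the nuclear subunits of the enzyme with the lowest values, and of Ndufa5, with the highest. They run 5′ to 3′ along the gene, with matches in capitals. Ndufb4 and Ndufa5 have the NRF1 motif, and Ndufc1 has only the YY1 motif. These promoters were picked by fold change, and a relation of motif to fold change was not tested. No matches overlapped in these windows.
Ndufb4, minus strand, chr16:37654319-37654618: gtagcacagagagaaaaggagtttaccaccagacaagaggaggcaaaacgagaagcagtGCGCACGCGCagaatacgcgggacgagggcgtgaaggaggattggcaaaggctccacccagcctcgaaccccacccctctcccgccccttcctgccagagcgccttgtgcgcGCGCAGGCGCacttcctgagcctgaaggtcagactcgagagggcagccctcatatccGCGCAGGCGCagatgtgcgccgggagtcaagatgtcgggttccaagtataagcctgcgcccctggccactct
Ndufc1, minus strand, chr3:51408906-51409205: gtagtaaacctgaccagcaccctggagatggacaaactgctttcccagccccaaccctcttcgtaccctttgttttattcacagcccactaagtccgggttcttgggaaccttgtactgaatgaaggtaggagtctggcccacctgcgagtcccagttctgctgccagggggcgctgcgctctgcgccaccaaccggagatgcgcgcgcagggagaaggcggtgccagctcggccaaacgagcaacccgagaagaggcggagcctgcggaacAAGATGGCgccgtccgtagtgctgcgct
Ndufa5, minus strand, chr6:24527641-24527940: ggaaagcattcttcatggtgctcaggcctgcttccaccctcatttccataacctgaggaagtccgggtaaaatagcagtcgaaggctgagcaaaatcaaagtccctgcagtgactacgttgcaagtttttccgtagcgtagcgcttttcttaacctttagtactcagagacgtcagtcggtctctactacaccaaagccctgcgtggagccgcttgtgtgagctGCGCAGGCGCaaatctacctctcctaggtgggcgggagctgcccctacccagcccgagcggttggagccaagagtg

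Shorter transcripts tended to have lower log2 fold changes in the whole table, and the nuclear subunit transcripts are short. Across 13100 genes with a length, which are not independent replicates, length and log2 fold change had a Spearman correlation of 0.232. Across the 38 with a nuclear subunit symbol, called nuclear subunits here, it was 0.147. The nuclear subunits had a median length of 921 bases against 3170 for all genes. Among transcripts of 500 to 1000 bases, 69.4% of the 572 other genes were negative, with a median of -0.041, against 19 of 21 nuclear subunits, with a median of -0.062. From 1000 to 1500 bases 65.6% of 1061 other genes were negative (median -0.029), against 7 of 7 subunits (-0.089). With the length trend removed, the median of the nuclear subunits was -0.024 with 28 of 38 negative, and that of the Ndufaf genes -0.012. The membrane arm accessory subunits then stood at -0.049 and those of the matrix arm at 0.00045. The mitochondrial subunits, also short, then stood at 0.10 with 6 of 7 positive.

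**Figure D4:**
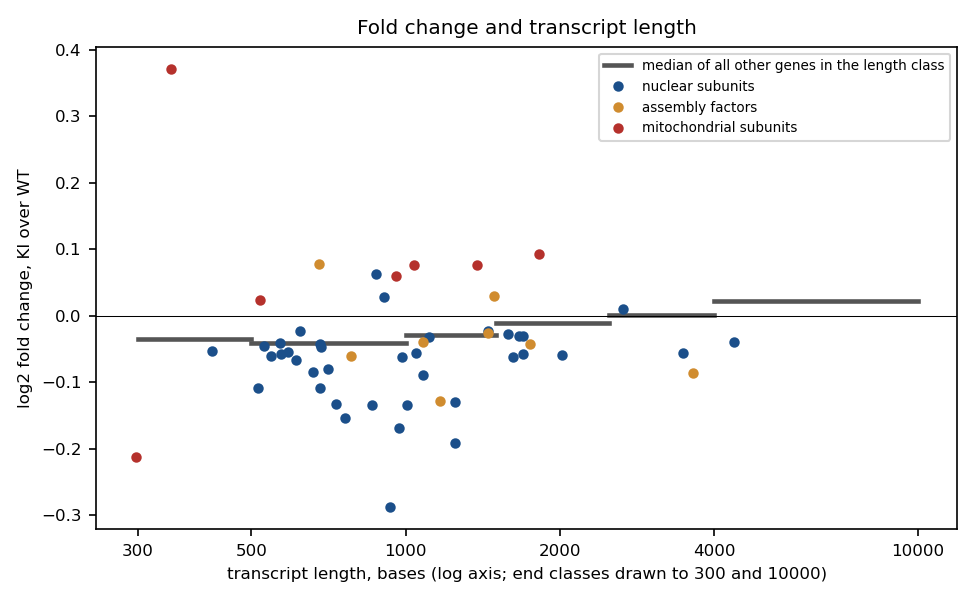
Log2 fold change, KI over WT, against transcript length on a log axis for the nuclear subunits, assembly factors and mitochondrial subunits. Grey bars give the median of all other genes in each length class, which runs from -0.041 at 500 to 1000 bases to 0.022 above 4000. Of the 38 genes with a nuclear subunit symbol, Ndufa4 and Ndufa4l2 included, 32 lie below the bar of their class. Of the 7 mitochondrial subunits 6 lie above theirs.

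Among markers of other cells and tissues, 2 thalamic markers and 1 of meninges passed the threshold, where 0.0732% of all genes did. The marker lists were chosen with earlier results of these data known, so the counts by sign are a description and no test. Thalamic markers had a median log2 fold change of -0.70 in the authors' deposited table (4 of 4 negative), those of meninges -0.29 (4 of 4), those of choroid plexus -0.37 (4 of 4) and those of oligodendrocytes -0.079 (5 of 5). Excitatory cortical neuron markers had a median of 0.062 with 4 of 5 positive, and inhibitory neuron markers -0.10 with 4 of 5 negative. Astrocyte (-0.0014), microglia (-0.0048) and endothelial (0.0062) markers had medians near 0. Of 4 blood markers 2 were in the table, both positive, with a median of 0.28. All other markers listed were in the table, and their level in each library is not known here. In bulk tissue, fewer cells of a type and less RNA per cell cannot be told apart. Their part in the complex I values, and that of length, was not tested.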

How the data were processed

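RNA-seq of poly(A) RNA was made from 5 WT and 5 KI cortices. Per the submitters' processing notes, reads were handled with Trimmomatic 0.39, HISAT2 2.1.0, featureCounts 2.0.0 and DESeq2 1.26.0 on mm10. For annotation, strand, filters, multiple alignments and model the settings are not given in the sources used. Per the file headers, the authors' deposited table gives the mean normalised count over all libraries (a signal value), the log2 fold change and its standard error, the Wald score, the p-value and the adjusted p-value. Counts per library were not analysed here, so the planned count model did not apply and depth, replicate spread and library checks are unknown. Whether animals were separate is not stated, so p-values may measure technical spread.

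The Wald score equalled log2 fold change over standard error, and the adjusted p-value a Benjamini-Hochberg adjustment over 13660 genes. Intervals are 95% normal intervals. RefSeq (GRCm38.p6) named 13497 genes, GENCODE M21 2 more, and 162 had no symbol. Length is that of the longest APPRIS principal transcript of GENCODE M21, else the longest of its basic set, else the longest of any kind. Mitochondrial genes were matched to transcripts by coordinates. The length trend was a lowess curve (span 0.5, statsmodels 0.14.6, Python 3.11.15), tested on simulated data. Copies were pseudogenes or Nduf genes elsewhere with over 95% identity over at least 100 bases (blastn 2.17.0). Members, lists and subunit groups were chosen with earlier results of these data known, and no set test was made on them. Named genes were the mitochondrial, Ndufaf and core members (1 of which is not reported singly), those with extreme fold change, p or level, and up to 3 per other list by p. Genes beyond that rule were chosen after their values were seen.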

Additional observations from a re-analysis of the deposited data

How the results depend on the processing

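No paired analysis was possible because the table holds no values per library, and no replicate could be left out. No member passed at an adjusted p of 0.1 or 0.01, with mean counts of at least 50 or 200, or with a log2 fold change of at least 0.5. The medians kept their sign under each alternative run. That of the nuclear subunits lay between -0.060 and -0.024, the Ndufaf genes between -0.051 and -0.012, and the mitochondrial subunits between 0.068 and 0.10. The values nearest 0 for both nuclear classes came with the length trend removed. Leaving out the 19 nuclear subunits with a near-identical copy or an overlapping gene, an alternative added after seeing the data like that without ND3 and ND4L, gave -0.058 over the other 19. Intervals reached past ±0.5 for Ndufa4l2, ND4L and ND3 only, of the 53 members.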
